A study of Rattus norvegicus with 30 samples.

Results

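The genes described here encode adherens and tight junction proteins of endothelial cells: Cdh5, Pecam1, Cldn5, Esam, F11r, Jam2, Jam3, Ocln and Tjp1. They were taken from the expression table by gene name. Of these 9 names, 8 had a row among the 30562 rows of the table, and all 8 passed the filter on low counts. Ocln was not analysed here. Expression was measured by RNA sequencing of rat lung cells bound by microbeads through CD31, which is the product of Pecam1. All animals were labelled wild type, and their lungs were sampled 3 weeks after surgery.

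The animals had either a sham operation or a Glenn operation, which connects the superior vena cava to a pulmonary artery, and that lung is then perfused by blood lacking the direct outflow of the liver. After either operation they ate a vitamin A control diet, a vitamin A deficient diet or a vitamin A excess diet. The 6 groups, named here by operation and diet, held 5 libraries each, and the comparisons ask how junction genes differ with surgery, with diet and with the combination. The sources used here do not give the animals' age, sex or strain, nor the side of the lung, and they do not say whether each library came from a separate animal. The p-values therefore measure the spread between libraries, which may be technical in part.

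Adjacent endothelial cells are held together by adherens junctions, in which VE-cadherin (Cdh5) binds its counterpart on the next cell and is tied to actin through catenins. Tight junctions lie close by: claudins such as claudin-5 (Cldn5) seal the space between cells, junctional adhesion molecules and ESAM are immunoglobulin-type adhesion proteins of the same contacts, and ZO-1 (Tjp1) is the scaffold beneath them. In the lung capillary bed these contacts keep plasma out of the air spaces and open locally for leukocytes.

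Promoter sequences were available in the RefSeq table of the rat assembly GRCr8 for 5 of the 9 names, which included Cldn5, Jam2 and F11r. These 3 are printed because they cover a tight junction gene that fell, a gene that differed between diets after Glenn surgery and a gene that rose. Each sequence runs 5′ to 3′ on the gene's own strand from 250 bases before the RefSeq start to 50 bases from it. Capitals mark the GC box, GGGCGG read on either strand.
Cldn5 promoter, chr11:95718549-95718848, minus strand: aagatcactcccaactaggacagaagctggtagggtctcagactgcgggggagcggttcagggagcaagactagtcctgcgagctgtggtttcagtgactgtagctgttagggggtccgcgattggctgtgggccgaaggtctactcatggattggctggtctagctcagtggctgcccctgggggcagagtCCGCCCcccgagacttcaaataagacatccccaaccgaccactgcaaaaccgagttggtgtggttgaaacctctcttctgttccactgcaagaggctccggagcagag
Jam2 promoter, chr11:37317310-37317609, plus strand: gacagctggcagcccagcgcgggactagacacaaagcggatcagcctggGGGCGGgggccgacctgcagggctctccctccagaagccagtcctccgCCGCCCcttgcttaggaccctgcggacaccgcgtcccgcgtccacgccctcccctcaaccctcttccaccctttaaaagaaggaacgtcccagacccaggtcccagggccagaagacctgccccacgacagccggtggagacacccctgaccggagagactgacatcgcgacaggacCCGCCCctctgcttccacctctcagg
F11r promoter, chr13:86405979-86406278, plus strand: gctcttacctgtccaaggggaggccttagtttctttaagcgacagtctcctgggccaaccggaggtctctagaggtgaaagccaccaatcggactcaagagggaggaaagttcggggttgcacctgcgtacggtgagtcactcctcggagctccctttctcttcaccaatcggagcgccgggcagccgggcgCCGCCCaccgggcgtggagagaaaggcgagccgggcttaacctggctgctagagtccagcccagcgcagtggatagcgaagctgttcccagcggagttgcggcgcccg
The GC box occurred once in the Cldn5 window and once in the F11r window, in each case with its first base at position -58 from the start. The Jam2 window held it 3 times, at -201, -153 and 25. The windows of Ocln and Tjp1 held none, so 3 of the 5 windows contained the motif, and 33.1% of all 33469 promoter windows did. Neither the FOX motif TGTTTAC, found in 3.78% of all windows, nor the tandem ETS motif GGAAGGAA, found in 3.81%, was present in the 3 printed sequences. In the F11r window the GC box overlapped a match to GGCGCC, a SMAD motif held by 11% of all windows. The GC content was 57.7% for Cldn5, 62.7% for F11r, 67.3% for Jam2, 65.3% for Ocln and 33.7% for Tjp1, against a median of 51.7% over all windows. These matches describe letters only, and the expression data do not bear on factor binding.

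Total estimated counts were 22 to 77.6 M per library, and the lowest estimated count of any of the 8 genes in any library was 899, for Jam3. Levels are given in counts scaled by TMM to a library total of 1 M (CPM), which are not corrected for gene length, so values are compared between libraries and never between genes. Changes are log2 differences fitted with edgeR over all libraries, with a term for the library series (22 libraries in series A, 8 in series B), and a gene is called changed where its Benjamini-Hochberg adjusted p over 16171 genes is under 0.05. Of 8 general endothelial markers, none was at 0 in all libraries of a surgery group, 4 rose and 4 fell with Glenn surgery, and their summed level was 3844 to 5088 CPM after sham and 3072 to 4686 CPM after Glenn. Markers of other cells moved as well. All 8 type 2 alveolar markers fell (summed 37250 to 63730 CPM after sham, 26310 to 59810 after Glenn), all 8 mural markers rose (125.5 to 318 against 388.3 to 1751), all 6 lymphatic markers rose (1010 to 1942 against 2286 to 4957) and all 6 platelet markers fell (26.69 to 105.6 against 22.17 to 96.36). Of 6 type 1 alveolar markers 4 rose and 2 fell (669.1 to 1104 against 693.1 to 1999), of 7 fibroblast markers 6 rose and none fell (1275 to 3263 against 1806 to 4693), and both erythroid markers tested rose (2.091 to 10.8 against 2.882 to 194.5). Of 6 general capillary markers 5 fell and none rose (6000 to 9026 against 2554 to 5768), and of 6 aerocyte markers 4 fell and 1 rose (1430 to 2320 against 853.4 to 1250). The 7 arterial markers gave 5 rises and 2 falls (1159 to 1652 against 1309 to 2163). Venous markers, 6 in number, gave 2 rises and 3 falls (1578 to 2657 against 880.4 to 2220). Over all tested genes, 23.4% rose and 24.7% fell in the comparison averaged over diets. Of 8 leukocyte markers 6 were tested and 2 fell, Lyz2 and Cd68 (summed 13010 to 24450 against 8052 to 18850). Nearly all of that sum was Lyz2 (13000 to 24450 CPM after sham, 8030 to 18850 after Glenn). Ptprc, with means of 4.209 and 2.973 CPM, was not called, nor were Laptm5, Coro1a and Cd79a. Marco was at 0 in all sham libraries. In bulk libraries, fewer cells of a type and less RNA per cell cannot be told apart.

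Averaged over the 3 diets, Glenn surgery was accompanied by a fall of 4 junction genes and a rise of 2. Cdh5, Cldn5, Esam and Jam2 were lower after Glenn, F11r and Jam3 were higher, and Pecam1 and Tjp1 did not pass the threshold. Called genes were thus 6 of 8, where 48.2% of all tested genes were called in this comparison (24.7% lower and 23.4% higher). The median change over the 8 genes was -0.21 against -0.01 over all genes tested. On the control diet 5 of 8 were called, 1 higher and 4 lower, where 24.9% of all genes were called (11.8% higher, 13.1% lower). On the deficient diet 5 of 8 were called, 2 higher and 3 lower, against 27.4% (13.7% higher, 13.7% lower). On the excess diet 3 of 8 were called, 1 higher and 2 lower, against 21.9% (11.6% higher, 10.4% lower). No junction gene passed for a difference between the library series (0 of 8, background 1.64%), between libraries with low and high levels of RT1-CE16, a histocompatibility gene that split the libraries into 17 and 13 (0 of 8, background 6.53%), or between sexes read from Ddx3y (0 of 8, background 0.0804%). At an unadjusted p under 0.05 these 3 edgeR tests gave 0, 2 and 3 of 8. The RT1-CE16 test was fitted without the series term.

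**Figure D1:**
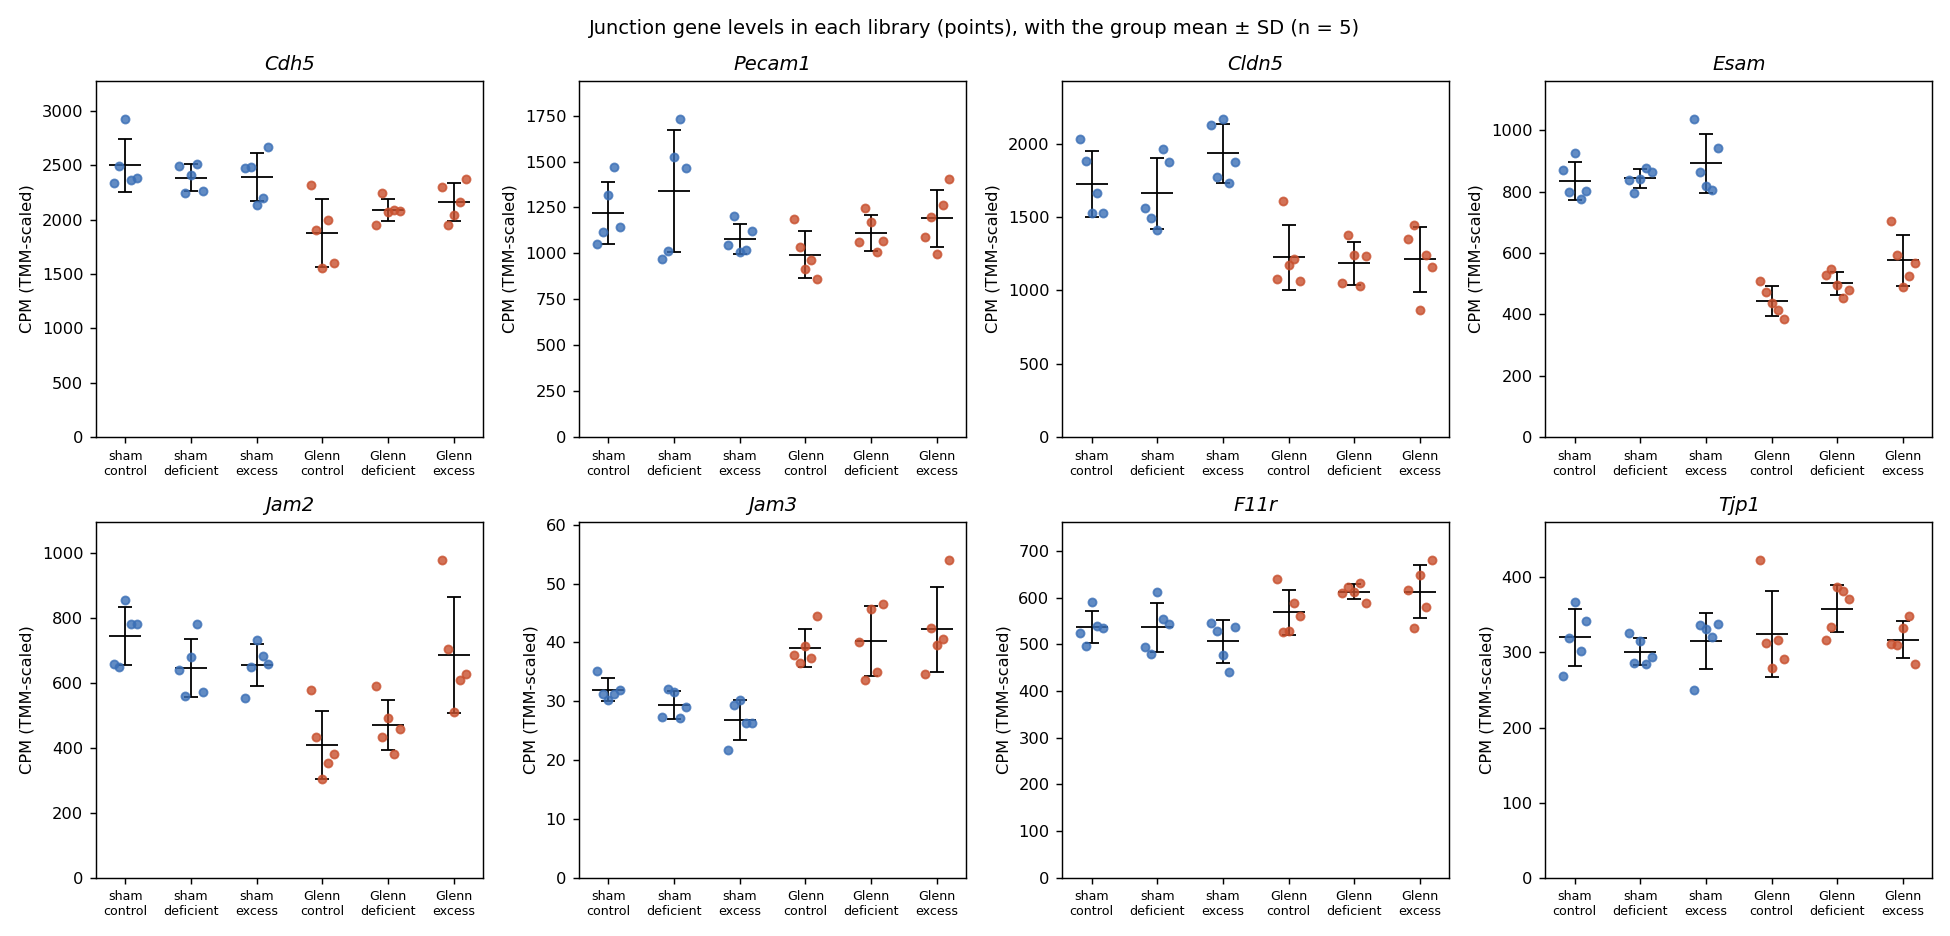
Level of each junction gene in each library, in CPM after TMM scaling, by group. Points are libraries and bars show the group mean ± SD (n = 5). Esam separates all sham libraries (775.1 CPM and above) from all Glenn libraries (703.5 CPM and below).

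Cdh5 (ENSRNOG00000013324), the adherens junction cadherin of endothelium, was measured at 2334, 2499, 2926, 2363 and 2382 CPM in the sham control libraries and at 2318, 1906, 1557, 1996 and 1606 CPM in the Glenn control libraries. On the control diet every Glenn library lay below every sham library, the nearest pair being 2318 and 2334 CPM. The sham deficient libraries gave 2496, 2244, 2413, 2512 and 2269 CPM, and the Glenn deficient libraries 1953, 2242, 2076, 2089 and 2085 CPM. Here too the groups did not overlap, the nearest pair being 2242 and 2244 CPM. On the excess diet the sham libraries held 2478, 2489, 2135, 2202 and 2668 CPM and the Glenn libraries 2302, 1951, 2047, 2165 and 2374 CPM, and these ranges overlapped.

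Over all diets Cdh5 averaged 2427 ± 196 CPM after sham and 2044 ± 235 CPM after Glenn (SD, n = 15 each). The fitted log2 change was -0.25 (SE 0.06, edgeR adjusted p = 0.00036), a fold of 0.839. By diet the change was -0.41 on the control diet (edgeR adjusted p = 0.00131), -0.19 on the deficient diet (edgeR adjusted p = 0.149) and -0.16 on the excess diet (edgeR adjusted p = 0.322). Of the single diets, the control diet alone passed the threshold, but the interaction of surgery and diet for Cdh5 did not (edgeR adjusted p = 0.971), so the diets are not shown to differ. With the type 2 alveolar marker level as a further term, Cdh5 also passed on the deficient diet (-0.41, edgeR adjusted p = 0.000898) and the excess diet (-0.34, 0.00682). In the RT1-CE16-low libraries alone neither the averaged change (-0.22, edgeR adjusted p = 0.0543) nor the control-diet change (-0.32, 0.223) passed.

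Pecam1 (ENSRNOG00000066008) encodes CD31 itself, the protein on which the cells were sorted and a homophilic adhesion molecule of endothelium, platelets and leukocytes. Its level was 1053, 1115, 1319, 1468 and 1142 CPM in sham control and 1190, 1033, 917.2, 966.3 and 862.6 CPM in Glenn control libraries. In the sham deficient group the values fell into 971.4 and 1014 CPM in replicates 1 and 2, against 1523, 1731 and 1465 CPM in replicates 3 to 5, which are the series B libraries of that group. The Glenn deficient libraries ranged from 1009 to 1248 CPM, the sham excess libraries from 1006 to 1201 CPM and the Glenn excess libraries from 998 to 1404 CPM.

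The averaged change of Pecam1 was -0.16 (SE 0.07, edgeR adjusted p = 0.0692) and did not pass the threshold, with a 95% interval of -0.31 to -0.01. Its direction depended on the libraries used: the value was 0.01 (edgeR adjusted p = 0.9) within series A alone and 0.09 (0.31) in the RT1-CE16-low libraries alone. On the deficient and excess diets the RT1-CE16-high libraries are exactly those of series B, so the series and this level cannot be told apart there. The control diet has series A libraries only, at both levels. With the type 2 alveolar marker level as a further term it was -0.34 and passed (edgeR adjusted p = 0.00104), and it also passed in limma voom (-0.19, adjusted p = 0.0224). As fitted over all libraries, no diet gave a called change of Pecam1. The changes were -0.30 (control, edgeR adjusted p = 0.0812), -0.21 (deficient, 0.251) and 0.02 (excess, 0.93). The averaged value passed when any of 5 libraries was left out (edgeR adjusted p down to 0.0347): replicate 1 of sham control, Glenn control or sham deficient, or replicate 2 of sham deficient or Glenn deficient. The control-diet value passed without Glenn control replicate 1 (edgeR adjusted p = 0.0368), within series A alone (-0.28, 0.0354), with the type 2 alveolar term (-0.37, 0.00889), in RT1-CE16-high libraries (-0.51, 0.0301) and in limma voom (-0.36, adjusted p = 0.0295). The deficient-diet value was 0.23 in series A alone (edgeR adjusted p = 0.297) and in RT1-CE16-low libraries (0.232), but -0.60 in RT1-CE16-high libraries (0.0131) and -0.46 with the type 2 alveolar term (0.0101).

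Cldn5 (ENSRNOG00000050071), the main sealing claudin of endothelial tight junctions, was 2032, 1881, 1527, 1662 and 1530 CPM in sham control libraries and 1076, 1606, 1170, 1213 and 1065 CPM in Glenn control libraries. One Glenn control library, replicate 2, thus lay inside the sham range, while the other Glenn control values were below it. On the deficient diet the sham values of 1563, 1493, 1414, 1967 and 1873 CPM were all above the Glenn values of 1049, 1374, 1240, 1028 and 1232 CPM. On the excess diet the groups were also apart, with sham libraries at 2126, 1774, 2167, 1734 and 1875 CPM and Glenn libraries at 1351, 1443, 866.1, 1241 and 1156 CPM.

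Cldn5 averaged 1775 ± 239 CPM after sham and 1207 ± 185 CPM after Glenn (SD, n = 15 each). The averaged change was -0.54 (SE 0.08, edgeR adjusted p = 6.95e-07). It was called on each diet, at -0.49 (control, edgeR adjusted p = 0.00507), -0.51 (deficient, 0.00407) and -0.62 (excess, 0.00183). Within series A alone the averaged change was -0.42 and still passed, but the deficient-diet change was -0.32 (edgeR adjusted p = 0.209) and the excess-diet change -0.46 (edgeR adjusted p = 0.0521), neither of which passed. In the RT1-CE16-low libraries alone these were -0.32 (edgeR adjusted p = 0.197) and -0.46 (0.0524), again not past the threshold. The control-diet call was lost in RT1-CE16-high libraries (-0.46, edgeR adjusted p = 0.0831). The excess-diet call was lost in a fit of only the groups compared (-0.46, edgeR adjusted p = 0.057).

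Esam (ENSRNOG00000033217), an adhesion molecule of endothelial tight junctions that is also present on platelets, showed the clearest separation of the 8 genes. The sham libraries held 870.3, 798.8, 927.2, 775.1 and 801.1 CPM on the control diet, 838.5, 795.9, 839.5, 876.5 and 863.1 CPM on the deficient diet and 1036, 863.7, 817.3, 806 and 942.3 CPM on the excess diet. The Glenn libraries held 508.8, 473.5, 438, 415.2 and 384.4 CPM, 528.4, 548.8, 496.7, 452.7 and 478.6 CPM, and 703.5, 594.5, 489.1, 524.8 and 566.3 CPM on the same diets. All 15 Glenn libraries lay below all 15 sham libraries, which was so for 2.73% of the tested genes (3.1% lay all above, 5.83% in both directions), and Esam was the only one of the 8 genes to separate in this way.

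Esam fell from 856.8 ± 69 to 506.9 ± 78.3 CPM (SD, n = 15 each). The fitted difference was -0.75 on the log2 scale (SE 0.05, edgeR adjusted p = 3.04e-13). The change was -0.91 on the control diet (edgeR adjusted p = 2.51e-09), -0.78 on the deficient diet (5.42e-08) and -0.56 on the excess diet (5.99e-05). Platelet markers fell with surgery too, and their part in the Esam result was not tested. The summed general capillary and aerocyte markers, like Esam, were lower in every Glenn library than in every sham library, and their part in the Esam and Cldn5 results was not tested. The summed arterial and venous markers overlapped between the surgeries. Esam was also lower within series A alone (-0.66) and with the type 2 alveolar marker level as a further term in the fit (-0.85).

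Jam2 (ENSRNOG00000042848) encodes JAM-B, a junctional adhesion molecule of vascular and high endothelium. In sham control libraries it stood at 658.6, 648.2, 855.6, 782.5 and 782.2 CPM and in Glenn control libraries at 578.6, 432.4, 304.6, 352.5 and 379.4 CPM, with no overlap. On the deficient diet the sham values of 638.8, 560.3, 678.3, 780.4 and 572.7 CPM and the Glenn values of 589.3, 431.7, 491.7, 381.8 and 457 CPM met only at Glenn replicate 1. On the excess diet the Glenn libraries, at 978.5, 705.1, 511.4, 607.3 and 627.7 CPM, spanned the sham libraries at 552.2, 648.8, 731.2, 683.8 and 659.3 CPM.

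Averaged over diets Jam2 changed by -0.40 (SE 0.09, edgeR adjusted p = 0.00034), from 682.2 ± 89.1 to 521.9 ± 170 CPM (SD, n = 15 each). The 3 diets gave unlike values: -0.86 on the control diet (edgeR adjusted p = 5.8e-05), -0.52 on the deficient diet (0.0117) and 0.18 on the excess diet (0.486). The interaction of surgery and diet for Jam2 did not pass in edgeR (adjusted p = 0.245), though it did in DESeq2 (adjusted p = 0.0128). Without Glenn excess replicate 1 the excess-diet value was -0.02. Neither the averaged nor the deficient-diet call of Jam2 held within series A alone (-0.24, edgeR adjusted p = 0.0714, and -0.24, 0.469). In the RT1-CE16-low libraries alone the values were -0.15 averaged (edgeR adjusted p = 0.375), -0.57 on the control diet (0.107) and -0.25 on the deficient diet (0.486), none past the threshold.

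Jam3 (ENSRNOG00000009149) encodes JAM-C, the partner of JAM-B across cell contacts, and moved the other way. Sham control libraries gave 35.22, 31.24, 30.15, 31.15 and 31.98 CPM and Glenn control libraries 37.89, 36.42, 39.31, 37.28 and 44.51 CPM. Sham deficient libraries gave 27.24, 32.10, 31.51, 27.09 and 29.06 CPM and Glenn deficient libraries 40.12, 33.62, 45.73, 35.05 and 46.56 CPM. Sham excess libraries gave 21.75, 29.40, 30.27, 26.37 and 26.30 CPM and Glenn excess libraries 34.58, 42.53, 39.51, 40.61 and 54.03 CPM. Within each diet every Glenn library was above every sham library.

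The mean of Jam3 was 29.39 ± 3.25 CPM after sham and 40.52 ± 5.45 CPM after Glenn (SD, n = 15 each). The fitted difference was 0.46 on the log2 scale (SE 0.06, edgeR adjusted p = 4.39e-07). It was 0.29 on the control diet (edgeR adjusted p = 0.0406), 0.47 on the deficient diet (0.00133) and 0.61 on the excess diet (0.000273). JAM-C is also made by lymphatic endothelium and smooth muscle, and the lymphatic and mural markers rose in the same libraries, each with summed levels that did not overlap between sham and Glenn. Their part in the Jam3 result was not tested. The control-diet call was lost when any of 7 libraries was left out, which were replicates 2 to 5 of sham control and 1, 3 and 5 of Glenn control (edgeR adjusted p up to 0.12). In the RT1-CE16-low libraries alone Jam3 was 0.20 on the control diet (edgeR adjusted p = 0.494) and 0.43 on the deficient diet (0.0702).

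F11r (ENSRNOG00000004414) encodes JAM-A, which is found on endothelium, epithelium and platelets. Its estimated counts were not whole in any of the 30 libraries, so some of its reads were shared with other rows, and its level is less certain than that of the other genes. After sham surgery the libraries ranged from 497.1 to 591.9 CPM on the control diet, from 479.2 to 612.2 CPM on the deficient diet and from 440.8 to 546.3 CPM on the excess diet. After Glenn surgery they ranged from 525.6 to 640.3 CPM, from 588 to 630.6 CPM and from 535.2 to 681.1 CPM on the same diets. The ranges overlapped on every diet.

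The averaged change of F11r was 0.17 (SE 0.04, edgeR adjusted p = 0.00203), from 527 ± 44.1 to 597.8 ± 45.9 CPM (SD, n = 15 each). By diet it was 0.08 (control, edgeR adjusted p = 0.477), 0.22 (deficient, 0.0292) and 0.20 (excess, 0.0813). The deficient-diet call was lost when any of 6 libraries was left out, which were replicates 1, 2 and 5 of sham deficient and 1 to 3 of Glenn deficient (edgeR adjusted p up to 0.097). With the type 2 alveolar marker level as a further term in the fit the averaged value was 0.09 and the deficient-diet value 0.11, and neither passed (edgeR adjusted p = 0.185 and 0.397). With no series term the deficient-diet value did not pass (0.19, edgeR adjusted p = 0.0672) and the excess-diet value did (0.27, 0.00812), and the excess-diet value also passed with a term for the RT1-CE16 level replacing that for the series (0.21, 0.044) and in DESeq2 (0.21, adjusted p = 0.0408). Of 5 general epithelial markers tested, 1 rose and 0 fell, with summed levels of 525.3 to 870.4 CPM after sham and 460.8 to 1064 CPM after Glenn. Of 6 type 1 alveolar markers 4 rose and 2 fell, and the part of either list in the F11r result was not tested.

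Tjp1 (ENSRNOG00000011077), the ZO-1 scaffold that links claudins and junctional adhesion molecules to actin, averaged 312.1 ± 31.2 CPM after sham and 333.2 ± 41.5 CPM after Glenn (SD, n = 15 each). Its averaged change of 0.09 (SE 0.06, edgeR adjusted p = 0.241) did not pass, with a 95% interval of -0.04 to 0.21. The libraries ran from 249.3 to 367.3 CPM after sham and from 279.5 to 423.2 CPM after Glenn. The nearest to the threshold was the deficient diet, with a change of 0.26 (edgeR adjusted p = 0.0608), which passed without replicate 1 of either deficient group (edgeR adjusted p down to 0.0431). With all libraries of the contrast it passed in DESeq2 (0.27, adjusted p = 0.0394), in limma voom (0.26, adjusted p = 0.0196) and in a fit of only the groups compared (0.26, edgeR adjusted p = 0.0245).

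**Figure D2:**
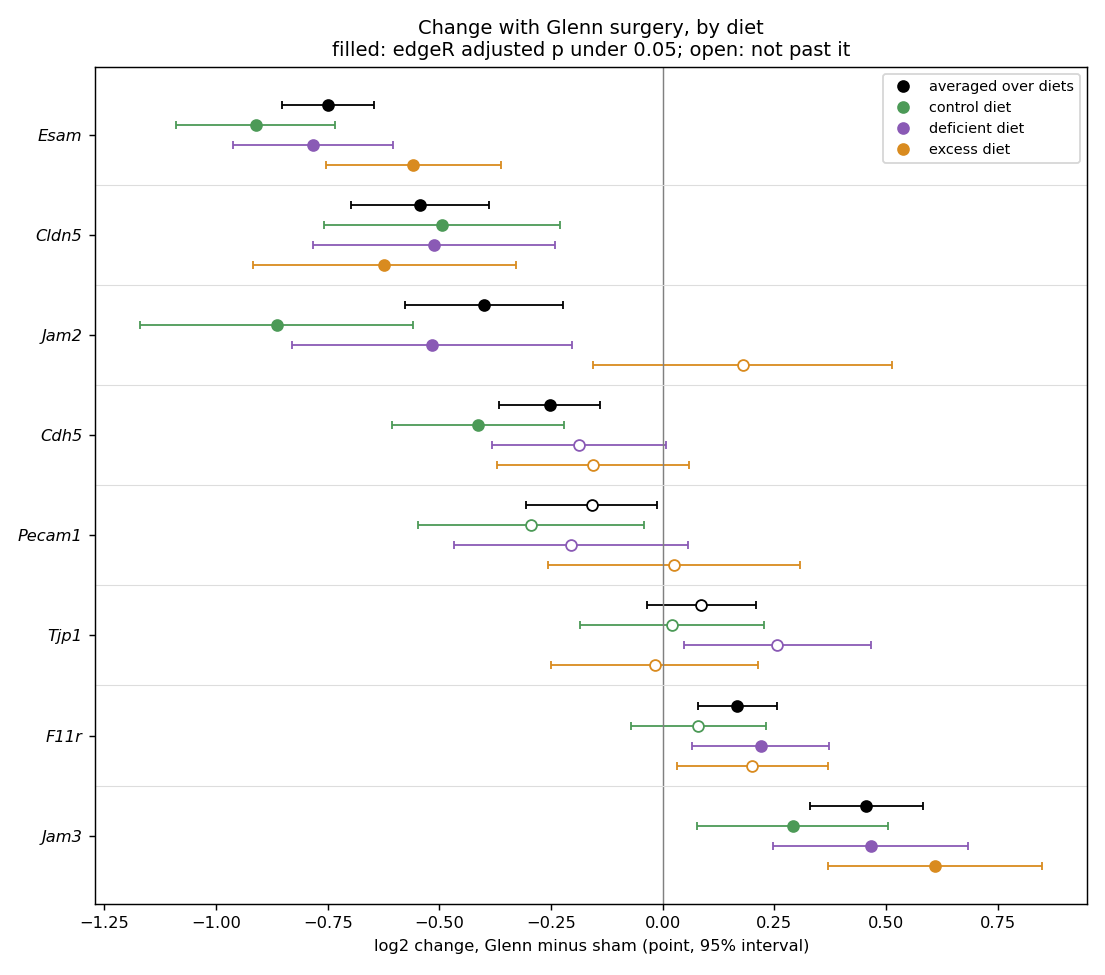
Fitted log2 change from sham to Glenn for each junction gene, averaged over diets and on each diet, with 95% intervals from edgeR. Filled points have an adjusted p under 0.05. Esam and Cldn5 are filled and negative in all 4 estimates, Jam3 is filled and positive in all 4, and Jam2 runs from -0.86 on the control diet to 0.18 on the excess diet.

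Counts of genes whose libraries did not overlap between surgeries can be read against the same background. On the control diet Cdh5, Esam and Jam2 lay all lower (background 9.41%) and Jam3 all higher (7.78%), 4 of 8 genes where 17.2% of all tested genes separated. On the deficient diet Cdh5, Cldn5 and Esam lay all lower (9.59%) and Jam3 all higher (10%), 4 of 8 against 19.6%. On the excess diet Cldn5 and Esam lay all lower (7.75%) and Jam3 all higher (8.59%), 3 of 8 against 16.3%.

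The junction genes changed unequally within the same libraries. The ratio of each gene to Cdh5 was taken in every library, since such a ratio does not depend on the scaling between libraries. The log2 ratio of Esam to Cdh5 was -1.66 to -1.26 over the sham libraries and -2.27 to -1.71 over the Glenn libraries, without overlap. The log2 ratio of F11r to Cdh5 moved the other way, from -2.33 to -1.98 after sham and from -1.90 to -1.52 after Glenn, also without overlap. Cdh5 itself fell with surgery (-0.25), so the ratio to it rises even for a gene that does not change. The level of F11r itself, not taken as a ratio, overlapped between surgeries on every diet, as did those of Pecam1 and Tjp1. The share of all genes whose ratio to Cdh5 separates was not computed. Jam3 relative to Cdh5 ran from -6.83 to -6.05 after sham and from -6.06 to -5.17 after Glenn, and Tjp1 relative to Cdh5 from -3.31 to -2.69 and from -3.06 to -2.42, both with overlap. The ratios of Pecam1, Cldn5 and Jam2 to Cdh5 overlapped between surgeries as well. These are differences within a gene pair, not a ranking of levels between genes.

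Diet gave fewer calls than surgery. Among sham animals no junction gene differed between diets (edgeR, 0 of 8 in each of 3 contrasts), where 0%, 0.241% and 0.0124% of all genes were called for deficient against control, excess against control and excess against deficient. At an unadjusted p under 0.05 there was 1 gene over these contrasts, Jam3 at -0.25 for excess against control (edgeR adjusted p = 0.356).

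Among Glenn animals, excess against control diet gave 2 called genes of 8, Jam2 and Esam, where 1.47% of all genes were called (0.89% higher). Jam2 was higher on the excess diet by 0.86 (SE 0.16, edgeR adjusted p = 0.008), a fold of 1.81, with group means of 409.5 ± 105 CPM on the control diet and 686 ± 177 CPM on the excess diet (SD, n = 5 each). Esam was higher by 0.45 (SE 0.09, edgeR adjusted p = 0.0145), a fold of 1.37, with means of 444 ± 48.7 and 575.6 ± 82 CPM. The libraries of both genes overlapped: for Jam2, Glenn control replicate 1 (578.6 CPM) stood above Glenn excess replicate 3 (511.4 CPM), and for Esam, Glenn control replicate 1 (508.8 CPM) stood above Glenn excess replicate 3 (489.1 CPM). The summed general capillary markers were 2554 to 3923 CPM in Glenn control and 3386 to 5768 CPM in Glenn excess libraries. Summed type 2 alveolar markers were 29140 to 59810 and 27410 to 42590 CPM in the same groups. The part of the mix of cells in the Jam2 and Esam differences was not tested.

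Both calls depended on single libraries and on the fit. Without Glenn excess replicate 1, the library with the highest value of either gene in its group, the Jam2 difference was 0.66 (edgeR adjusted p = 0.15), and the Esam call was lost without that library and also without Glenn control replicate 4 or replicate 5 (0.35 to 0.51 over all libraries left out in turn, edgeR adjusted p 0.00386 to 0.199). The Glenn control libraries are all of series A and 3 of the 5 Glenn excess libraries are of series B, so the series enters this contrast through the fitted term alone. With no series term Esam did not pass (0.375, edgeR adjusted p = 0.0983), nor with the replicate block (0.38, 0.0735). When only the groups compared were fitted, neither Jam2 (1.01, edgeR adjusted p = 0.0819) nor Esam (0.52, 0.108) passed. Neither passed in RT1-CE16-low libraries alone (edgeR adjusted p = 0.107 and 0.15) or RT1-CE16-high libraries alone (0.102 and 0.226).

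The remaining diet contrasts after Glenn surgery called no junction gene. Deficient against control gave 0 of 8 (background 0.00618%), with Esam at 0.23 (unadjusted p = 0.0178, edgeR adjusted p = 0.38) as the 1 gene under an unadjusted 0.05. For excess against deficient, 0 of 8 were called (background 0%), and 2 genes were under an unadjusted 0.05: Jam2 at 0.58 (edgeR adjusted p = 0.406) and Esam at 0.22 (edgeR adjusted p = 0.914). For Jam2 the 3 Glenn group means thus stood in the order control (409.5 CPM), deficient (470.3 ± 77.6 CPM) and excess (686 CPM), and only the outer pair differed past the threshold.

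The interaction of surgery and diet asks whether the surgery change itself differed between diets. No junction gene passed (edgeR, 0 of 8, background 0.00618%), and 2 of 8 were under an unadjusted 0.05. Jam2 was the nearest, with an unadjusted p of 0.000255 and an edgeR adjusted p of 0.245, and its surgery change on the excess diet exceeded that on the control diet by 1.04. DESeq2 called Jam2 in the same test (adjusted p = 0.0128), as did edgeR without Glenn control replicate 1 (adjusted p = 0.0232). For Esam the surgery change on the excess diet exceeded that on the control diet by 0.35 (edgeR adjusted p = 0.845).

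**Figure D3:**
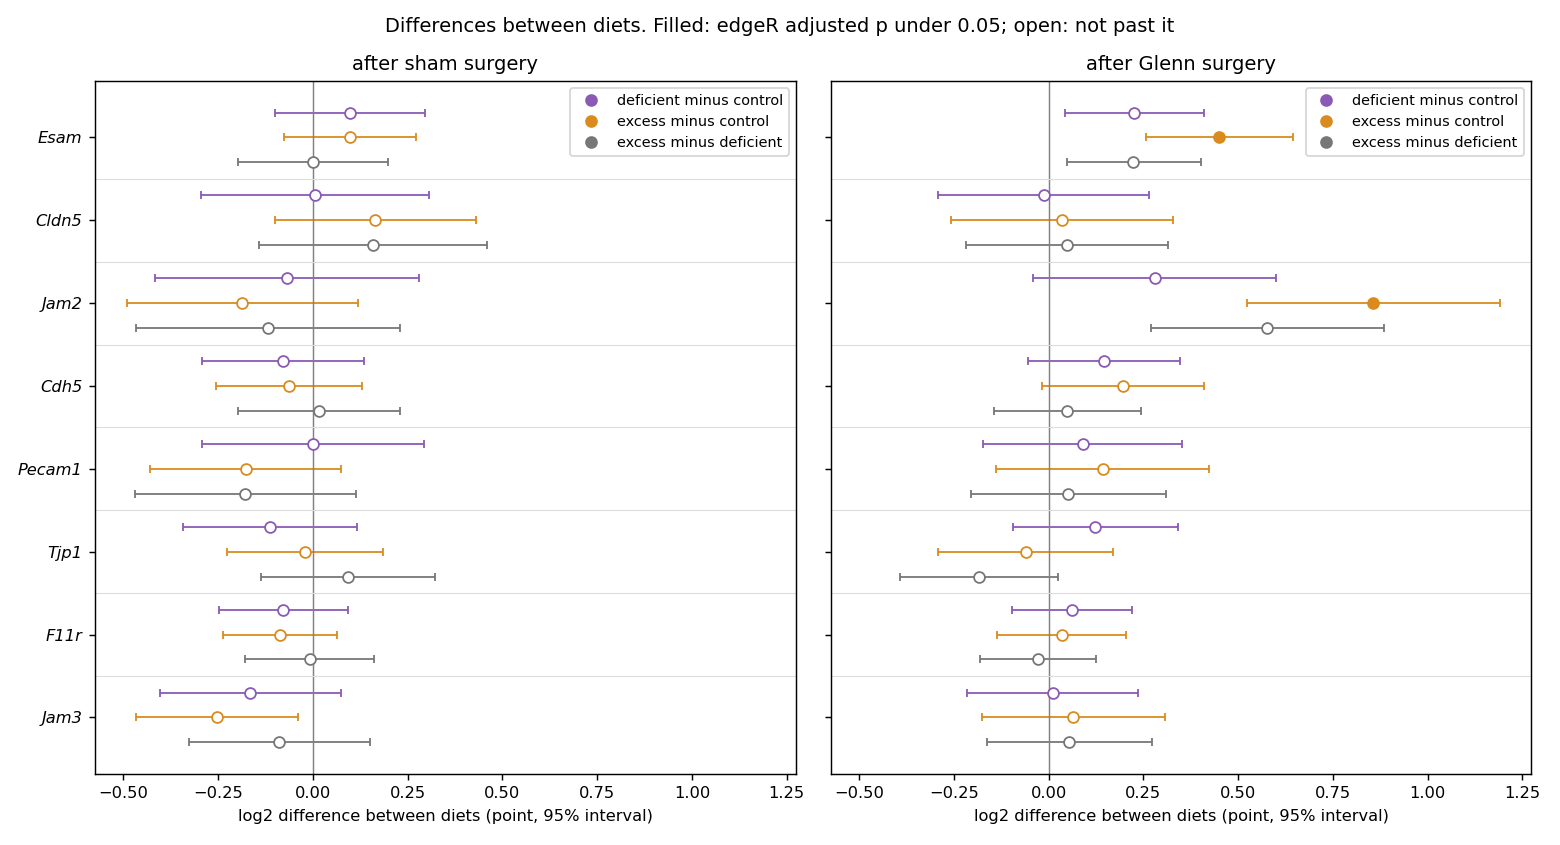
Fitted log2 difference between diets for each junction gene, after sham and after Glenn surgery, with 95% intervals from edgeR. Filled points have an adjusted p under 0.05, and the only filled ones are Jam2 (0.86) and Esam (0.45) for excess against control diet after Glenn surgery.

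Other genes of the junctions were read from 5 lists with 86 names, of which 80 genes were tested. In the comparison averaged over diets, 21 of the 80 rose and 30 fell, against the background of 48.2% called, and their median change was -0.08. Among 16 adherens junction partners 3 rose and 9 fell, among 18 tight junction scaffolds 4 rose and 4 fell, among 15 other claudins 4 rose and 4 fell, among 9 other contact proteins 3 rose and 3 fell, and among 22 junction regulators 7 rose and 10 fell. The median changes of the lists were -0.17, 0.09, -0.27, 0.12 and -0.09 in that order.

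The catenins, which tie cadherins to actin, moved in opposite directions. Ctnnb1 (beta-catenin) rose from 266.3 ± 12.5 to 349 ± 22.8 CPM (SD, n = 15 each), every Glenn library above every sham library, by 0.39 (edgeR adjusted p = 1.94e-10). Jup (plakoglobin), its relative in the same position, fell from 691.3 ± 60.9 to 463.4 ± 46.2 CPM, every Glenn library below every sham library, by 0.56 on the log2 scale (edgeR adjusted p = 8.08e-11). Ctnna1 (alpha-catenin) changed by -0.16 (edgeR adjusted p = 0.000715) and Ctnnd1 (p120-catenin) by -0.19 (edgeR adjusted p = 0.000159). Ptprb, the phosphatase VE-PTP that binds VE-cadherin, changed by -0.24 (edgeR adjusted p = 0.0113).

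Among other cadherins Cdh13 (T-cadherin, which lacks a cytoplasmic part) rose by 2.74 (SE 0.14, edgeR adjusted p = 8.16e-15). Nectin2, a nectin and not a cadherin, rose by 0.85 (edgeR adjusted p = 5.86e-14). Pcdh1 (protocadherin) fell by 1.48 on the log2 scale (edgeR adjusted p = 3.02e-18), and the endothelial protocadherin Pcdh12 fell by 0.53 (edgeR adjusted p = 9.24e-08).

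The scaffolds next to Tjp1 also moved both ways. Amotl2 (an angiomotin-like protein) fell by 0.72 on the log2 scale (edgeR adjusted p = 8.69e-10) and Pard3 (a polarity protein) by 0.19 (0.0231). Magi1 rose by 0.71 (edgeR adjusted p = 3.37e-09), Cgnl1 (paracingulin) by 0.65 (3.81e-07) and Mpdz by 0.28 (0.000997).

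Among other claudins Cldn11 rose by 1.22 (edgeR adjusted p = 1.73e-05) and Cldn1 by 1.16 (0.00403), both with means under 2 CPM over all libraries, and Cldn18, a claudin of alveolar epithelium, by 0.43 (0.000135). Cldn3, Cldn10 and Cldn12 fell by 0.51, 0.91 and 0.32 on the log2 scale (edgeR adjusted p = 8.45e-05, 0.000138 and 0.000753). Cldn3 and Cldn18 are epithelial claudins. In the same libraries all 8 type 2 alveolar markers fell, while 4 of 6 type 1 alveolar markers rose (Ager by 0.82, Aqp5 by 0.75, Akap5 by 0.91 and Rtkn2 by 1.07) and 2 fell. The part of both lists in these changes was not tested.

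Of the other contact proteins, Icam2 (a leukocyte ligand at endothelial contacts) fell by 0.86 on the log2 scale (edgeR adjusted p = 5.72e-14), Podxl (podocalyxin) by 0.74 (3.45e-11) and Cd47 by 0.34 (3.42e-10). Pvr (a nectin-like receptor) rose by 0.95 (edgeR adjusted p = 1.45e-13), Robo4 (an endothelial guidance receptor) by 0.89 (1.2e-12) and Clmp by 0.63 (0.0383). Clmp had a mean of only 1.497 CPM over all libraries. Among regulators, Heg1 and Rasip1, which act with Rap1 to hold endothelial junctions, fell by 0.64 (8.64e-08) and 0.46 (6.11e-07), and the guanine exchange factor Vav3 by 0.47 (1.16e-08). Radil, another effector of Rap1, rose by 1.54 (edgeR adjusted p = 2.14e-09), from a mean of 3.917 to 11.5 CPM, Vasp by 0.42 (6.38e-08) and the kinase Yes1 by 0.27 (4.58e-05).

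**Figure D4:**
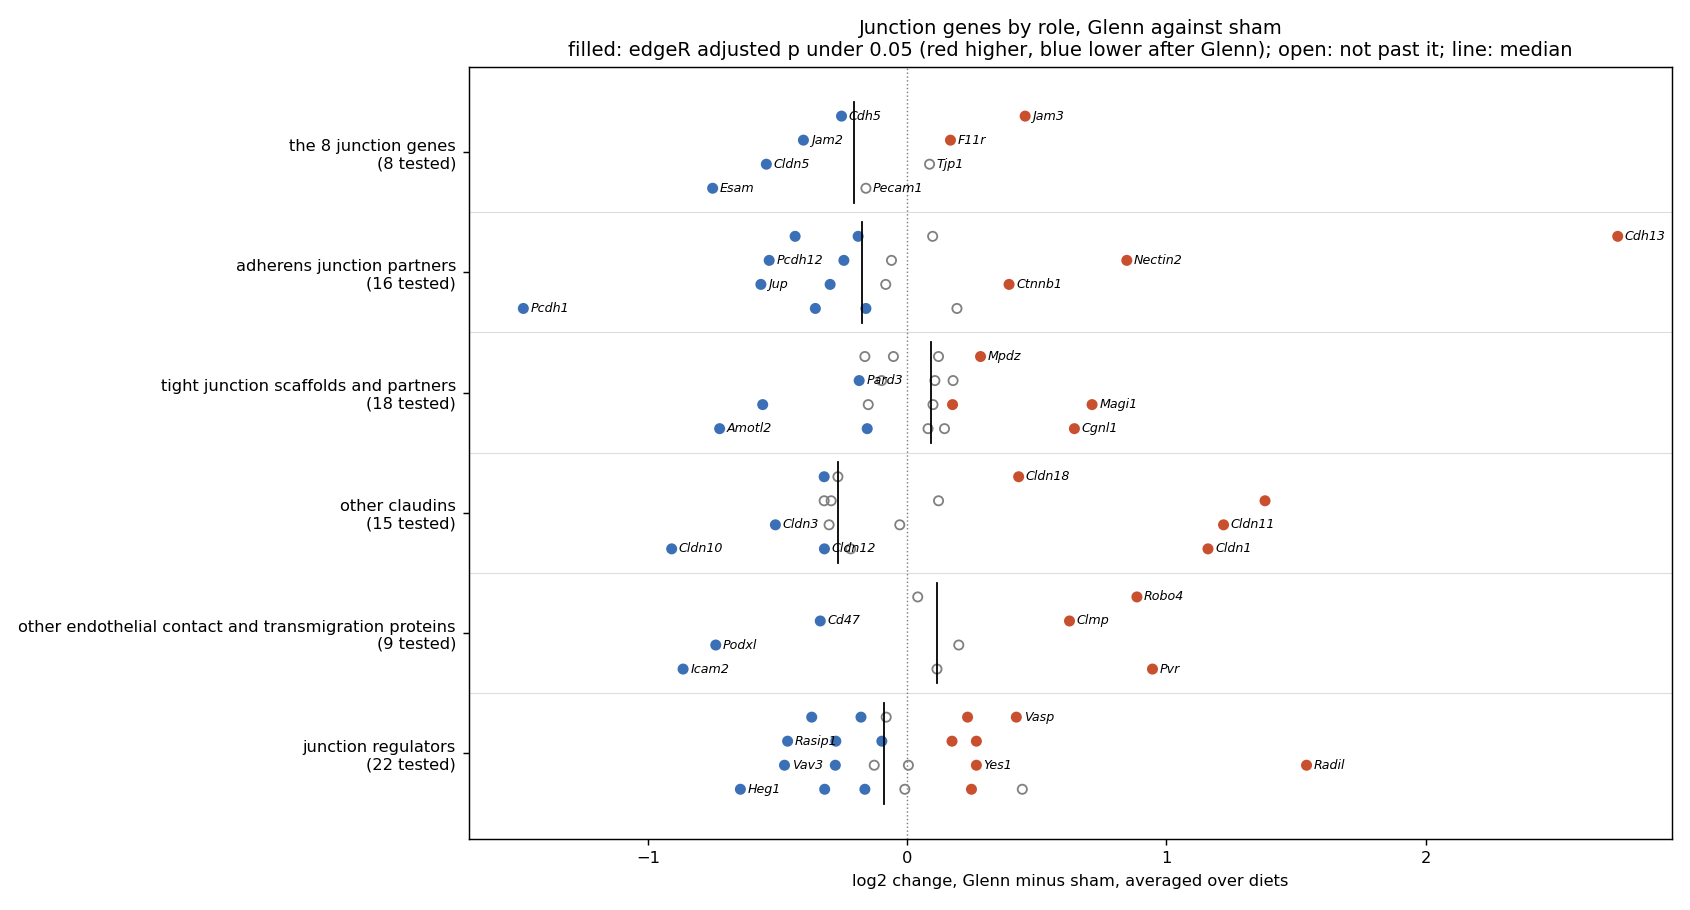
Averaged log2 change from sham to Glenn of each tested junction gene, grouped by role, with the list median as a line. Filled points have an edgeR adjusted p under 0.05. Each list holds genes that rose and genes that fell, from Pcdh1 at -1.48 to Cdh13 at 2.74 in the adherens junction list.

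After Glenn surgery the excess against control diet contrast called 2 of the 80 other junction genes (background 1.47%), both lower on the excess diet. Cldn7 was lower by 0.86 on the log2 scale (edgeR adjusted p = 0.0126), with means of 20.35 ± 2.47 CPM on the control and 13.08 ± 3 CPM on the excess diet (SD, n = 5 each). Lsr, an angulin of tricellular contacts, was lower by 0.59 (edgeR adjusted p = 0.017), with means of 70.28 ± 6.69 and 54.17 ± 12.4 CPM. Both are epithelial junction genes, and Epcam in the same libraries was 176 ± 24.9 and 122 ± 20.8 CPM. The part of epithelial cells in these differences was not tested.

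For each junction gene the genes with the most similar pattern were sought among 9348 genes, by the root mean square difference of log2(CPM + 1) after centring each gene over the 30 libraries. The nearest to Esam were Cyyr1 (0.0978) and Cyth1 (0.109), and the nearest to Cldn5 were Sh2d3c (0.133) and Bag3 (0.146). Cdh5 was nearest to Ankrd13a (0.109) and Gtf2ird1 (0.115), and Pecam1 to Abi2 (0.166) and Tmem101 (0.167). For Jam2 they were Ece1 (0.195) and Il33 (0.202), and for Jam3 Hif1a (0.141) and C19h1orf198 (0.15). F11r was nearest to Arl2bp (0.0821) and Nit2 (0.0909), and Tjp1 to Top2b (0.104) and Ulk2 (0.107). These differences are to be read against each gene's own root mean square around its mean. That was 0.418 for Esam, 0.39 for Jam2, 0.345 for Cldn5 and 0.279 for Jam3. It was only 0.23 for Pecam1, 0.191 for Cdh5, 0.162 for Tjp1 and 0.145 for F11r, so their small differences do not mean closer matches. No junction gene of the 8 was among the 2 nearest of another, and all pairs share the same libraries.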

How the data were processed

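The table the authors deposited holds estimated counts per gene for 30 libraries, and all 30 sample columns were used. Per the submitters' processing notes, the tools were FastQC, Trim Galore, Picard, STAR and Salmon, with the build mRatBN7.2 (rn7). Versions, the annotation release and strandedness are not given in the sources used here. Per the labels, the kits were PureLink RNA mini for RNA and SMART-Seq Ultra Low v4, which does not mark strand, for the libraries. Of the estimated counts, 13.6% were not whole.

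Estimated counts were rounded. The filter filterByExpr, with a minimum count of 10 and a total of at least 15, kept 16171 genes. After TMM scaling (factors 0.938 to 1.06) the counts were fitted in edgeR 4.0.16 (quasi-likelihood, legacy = TRUE, robust) under R 4.3.3, with 1 mean per group and an additive term for the library series (residual degrees of freedom 23). The series is the number range of the library names. The Benjamini-Hochberg adjustment of p-values ran over all genes in each contrast, and the threshold was 0.05. Intervals are 95% intervals of the fitted coefficient. The 10 contrasts were Glenn minus sham averaged over diets and on each diet, and the 6 diet pairs within a surgery. The interaction was an F test with 2 degrees of freedom. The averaged contrast was tested on simulated data that held no effect of diet or series. The other contrasts and the interaction were not tested in this way.

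Alternatives were DESeq2 1.42.0, voom of limma 3.58.1, other scaling, filtering, dispersion and covariate choices, subsets by series or by level of the RT1-CE16 gene (high above 100 CPM, 13 libraries, low otherwise, 17 libraries), and leaving out each library. Within groups the counts of the 60 pairs of libraries differed well beyond sampling noise (chi-square per degree of freedom 21.2 to 126). The genes and lists were chosen with earlier results of these data known. Of each wider list, the 3 genes rising and the 3 falling with the smallest adjusted p are named, given 1 CPM or more on average, plus Ctnna1, Ctnnb1, Ctnnd1, Ptprb and Cldn18, and 1 gene under this rule is not reported here. For likeness, the 2 nearest genes are named, among those averaging 10 CPM or more. Ocln was not analysed here.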

Additional observations from a re-analysis of the deposited data

Results flagged for a closer look

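In 4 of 48 sets of 5 libraries (8 genes in 6 groups), 1 library stood apart from the other 4 by a gap that was a large share of the range (Dixon's criterion). Chance flags about 1 in 20 such sets, or 2.4 of 48. Cdh5 in sham control replicate 3 was 2926 CPM against 2334 to 2499 CPM in the other libraries (gap over range 0.721). Cldn5 in Glenn control replicate 2 was 1606 CPM against 1065 to 1213 CPM (0.726). Tjp1 in sham excess replicate 1 was 249.3 CPM against 320.6 to 337.8 CPM (0.805). Tjp1 in Glenn control replicate 1 was 423.2 CPM against 279.5 to 316.3 CPM (0.744).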

How the results depend on the processing

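In the alternatives other than leaving out a library, 82 of 90 counts of called genes stayed within 1.5 times of the value reported, and 407 single-gene values kept both direction and side of the threshold, 30 lost the threshold, 17 gained it and 10 changed sign. RT1-CE16-low libraries alone gave 2 called genes on the control diet and 1 on the deficient diet in place of 5, and 0 diet differences in place of 2. Series A alone gave 3 called genes on the deficient diet. The 2 diet differences became 1 with no series term, 1 with the replicate block and 0 when only the groups compared were fitted. DESeq2 called 1 gene in the interaction in place of 0. Signs changed for Pecam1 averaged over diets (0.0144 in series A alone, 0.0943 in RT1-CE16-low libraries), for Pecam1 on the deficient diet (0.23 and 0.226), for Pecam1 and Jam2 on the excess diet with the type 2 alveolar term (-0.19 and -0.0282), for Tjp1 on the control diet (-0.0617 in limma voom, -0.143 in RT1-CE16-high libraries, -0.0151 with the type 2 alveolar term) and for Tjp1 on the excess diet (0.00937 with no series term). The smaller subsets hold fewer libraries; for the other changes the cause was not tested. With each library left out in turn, called genes numbered 6 to 7 averaged over diets, 4 to 5 on the control diet, 4 to 5 on the deficient diet, 3 on the excess diet, 0 to 2 in the diet contrasts (changed by Glenn control replicates 4 and 5 and Glenn excess replicate 1), 0 to 1 in the interaction (Glenn control replicate 1) and 47 to 52 in the wider lists. Leaving out a library changed the sign of Pecam1 (-0.0337 to 0.0661), Jam2 (-0.0217 to 0.222) and Tjp1 (-0.0915 to 0.0109) on the excess diet and of Tjp1 on the control diet (-0.0939 to 0.0898). The Jam2 diet difference after Glenn surgery ran from 0.66 to 1.01 (edgeR adjusted p 0.000612 to 0.15), and in RT1-CE16-low libraries it was 0.94 (edgeR adjusted p = 0.107). The replicate numbers were not taken as pairs in the main fit. Of 15 pairs of same-numbered libraries, 7 had a correlation of deviations over 0.1 (range -0.246 to 0.231), and 5 correlated best with their own number. Such weak correlations cannot exclude a pairing. With the replicate block, called genes were 6 averaged over diets, 5, 5 and 3 on the control, deficient and excess diets, 0 in the interaction and 50 in the wider lists. DESeq2 size factors moved the median change of all genes from -0.01 to -0.00117. RT1-CE16-high libraries hold no sham excess library and so gave no averaged, excess-diet or interaction value, and a fit of only the groups compared was not made for those over all groups. The lowest estimated count of a junction gene was 899, so counting error is small beside the spread between libraries.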

Other observations

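Levels of the RT1-CE16 gene split the libraries into 13 high and 17 low, a split known from earlier results of these data, and the sham excess group holds low libraries only. Among sham libraries Pecam1 was 971.4 to 1201 CPM in the 9 low and 1142 to 1731 CPM in the 6 high libraries. Among Glenn libraries it was 917.2 to 1248 CPM in the 8 low and 862.6 to 1404 CPM in the 7 high libraries. The Glenn minus sham change of Pecam1 was 0.55 lower on the log2 scale in high than in low libraries (unadjusted p = 0.000245, edgeR adjusted p = 0.133), that of Jam2 0.59 lower (unadjusted p = 0.00148, edgeR adjusted p = 0.221), and neither passed, as did no gene in this test (0 of 16171). This test was fitted without the series term. On the deficient and excess diets every high library is of series B, so the level and the series cannot be told apart there.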
